A study of Talpa occidentalis with 2 samples.

Results

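Perforin, encoded by PRF1, and the granzymes GZMA, GZMB, GZMH, GZMK and GZMM are the killing proteins of cytotoxic lymphocytes. In the deposited gene annotation of the Iberian mole, Talpa occidentalis, PRF1 had 5 models on 1 scaffold, interleaved with neighbouring genes. Of these, 4 shared exon lengths of 539 and 1129 bases, and 3 of the 4 had both exons under 10 kb apart. The remaining model had 1 coding exon. No granzyme symbol had a pair of models with the same exon lengths. GZMH had 3 models, GZMA and GZMB had 2 each, GZMK had 1 and GZMM had 0. The members were all gene models whose name, read without a copy suffix, was 1 of these 6 symbols, and they made up 13 of 23336 models in the file. They were selected on measured values, namely the number and equal exon lengths of the PRF1 models in this same annotation, so all counts below are descriptions and carry no test.

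The series is a 4C-seq study, an assay that sequences the DNA ligated to 1 chosen site, here the promoter of FGF9. It has 1 library from forebrain and 1 from hindlimb of wild-type embryos at embryonic day 15, and the labels do not say whether embryos were pooled. The file analysed was the annotation of build talOcc3, which has no column for either library, so nothing below compares the tissues. Contact or expression values were not analysed here, depth per library is unknown, and the tissue labels were not checked against marker genes. Each value belongs to 1 assembled genome, with 23336 models on 2074 scaffolds and no replicates.

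Perforin is stored in the granules of cytotoxic T cells and natural killer cells. After release it assembles into pores in the membrane of the target cell, through a fold that it shares with the complement proteins of the membrane attack complex, and the granzymes enter through these pores. Granzymes are serine proteases of the chymotrypsin fold: GZMB cuts after aspartate and activates caspases, GZMA and GZMK cut after basic residues, GZMH has chymase-like activity and GZMM cuts after methionine. In human, GZMK and GZMA lie side by side, GZMH and GZMB lie in the chymase locus with cathepsin G (CTSG) and mast cell chymase (CMA1), and GZMM lies apart near other myeloid proteases. Nucleotide and protein sequences of the mole genes were not used here, so the models are shown by their exons, reading frame and position, and models of equal length may still differ in sequence.

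All 5 PRF1 models lay on the minus strand of scaffold 11, between 21093278 and 21472992, a stretch of 379.7 kb. From the lower end upward, PRF1_copy3 lay at 21093278 to 21095901 and the model without a suffix, PRF1, at 21116713 to 21119348. PRF1_copy4 followed at 21201767 to 21394783, PRF1_copy5 at 21444158 to 21444700 and PRF1_copy2 at 21470378 to 21472992. The suffixes did not follow the order on the scaffold. The scaffold is annotated up to 63.7 Mb, so the group was not at its end.

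PRF1, PRF1_copy2, PRF1_copy3 and PRF1_copy4 each had 2 coding exons and 1668 coding bases, which is 556 codons with any stop codon included. In all 4, exon 1 had 539 bases, exon 2 had 1129 bases, and exon 2 began with a frame offset of 1 base, as the length of exon 1 requires. A coding exon of 539 bases occurred in 0.0643% of all models (15 of 23336) and one of 1129 bases in 0.0257% (6). The PRF1 models made up 4 of the 15 and 4 of the 6, and since they were selected on these lengths, nothing is read from the shares. Outside PRF1, the length 1129 was found only in the zinc finger genes ZFP69 and ZNF132, named after their values were seen. PRF1_copy5 had 1 coding exon of 543 bases, 4 more than exon 1 of the others. Its match covered bases 162 to 700 of the same target transcript, whose bases 162 to 1829 were matched by PRF1, PRF1_copy2 and PRF1_copy4. PRF1_copy5 therefore stood for the exon 1 part of the gene, and the group held 5 models of exon 1 and 4 of exon 2.

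**Figure D1:**
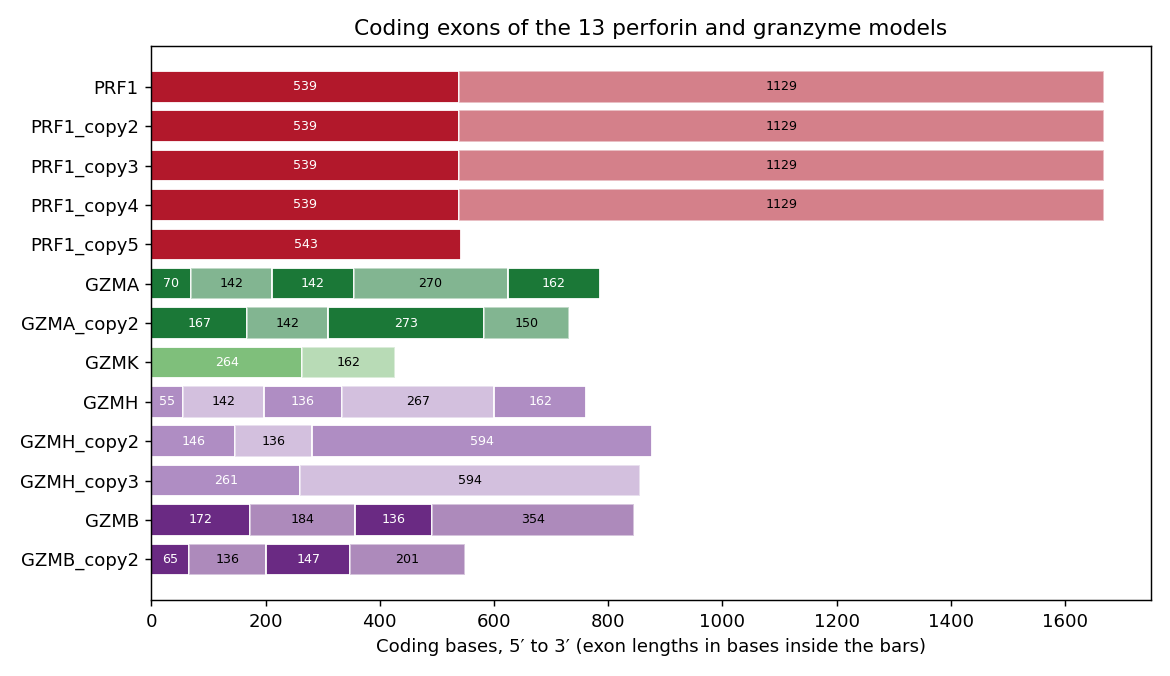
Coding exons of the 13 models, drawn 5′ to 3′ as stacked bars with exon lengths in bases on the x axis and 1 row per model; alternate exons are shaded dark and light. The 4 PRF1 models of 1668 bases have the same bar, and no pair of granzyme models of 1 symbol does.

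The deposited score rates the match of a transcript to its target, and the sources used here do not give its formula. The best PRF1 score was 1244, for the model without a suffix. PRF1_copy2 scored 1240 (99.7% of the best), PRF1_copy3 1231 (99.0%) and PRF1_copy4 1216 (97.7%). All 4 rest on the same coding length, and their scores differed by at most 28. PRF1_copy5 scored 312 (25.1%) over a match of 539 bases, 32.3% of the longest match. PRF1_copy3 matched its target up to base 1827 and from its own base 3, where the other models of 2 exons began at base 1.

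Introns set 1 model apart. The intron measured 947 bases in PRF1_copy2, 956 in PRF1_copy3 and 968 in PRF1, against a median of 1124 bases over all 157050 introns between coding exons in the file. In PRF1_copy4 it measured 191349 bases (191 kb), 200.2 times the median of the other 3. Introns of that length or longer made up 0.0382% of all introns (60 of 157050), and 0.394% of models with 2 coding exons had one (8 of 2031). Coding bases were 0.864% of the span of PRF1_copy4. With exons more than 10 kb apart counted as separate, 3 complete pairs of exons remained (PRF1, PRF1_copy2 and PRF1_copy3), together with a lone exon 2 at 21201767 to 21202895 and lone exon 1 pieces at 21394245 to 21394783 and 21444158 to 21444700. Whether exon 1 and exon 2 of PRF1_copy4 belong to 1 gene was not tested.

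**Figure D2:**
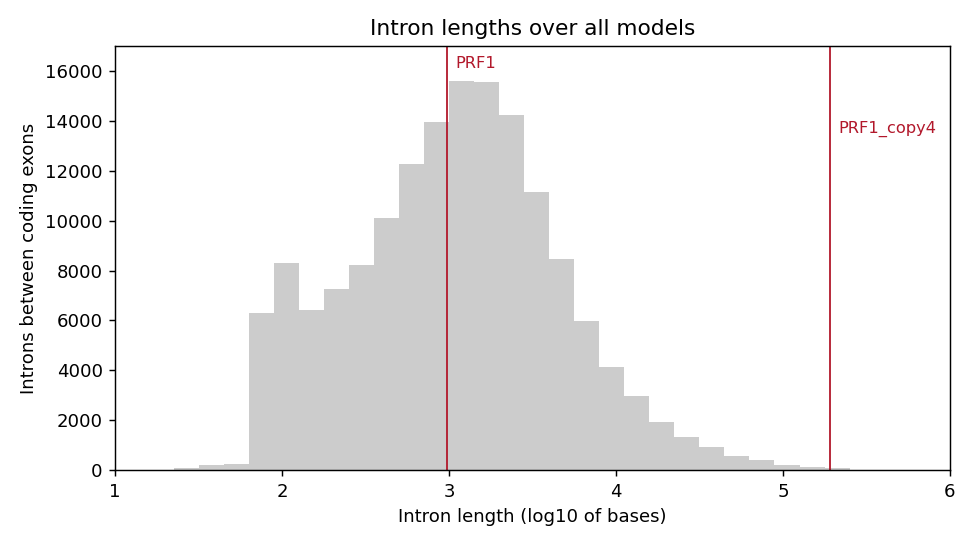
Histogram of the lengths of all 157050 introns between coding exons, with log10 of bases on the x axis and the number of introns on the y axis; red lines mark the introns of PRF1 (968 bases) and PRF1_copy4 (191349 bases). PRF1 lies near the peak and PRF1_copy4 in the far right tail.

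Spacing between the models was uneven. Measured between gene starts, which for this strand are the upper edges, PRF1_copy3 and PRF1 were 23.4 kb apart, PRF1_copy4 and PRF1_copy5 49.9 kb, and PRF1_copy5 and PRF1_copy2 28.3 kb. Between PRF1 and PRF1_copy4 lay 275 kb, most of it the long intron, and their edges were 82.4 kb apart. With starts allowed up to 100 kb apart, the group split into a run of 2 and a run of 3 models.

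The neighbours of PRF1 were interleaved with its models. PALD1, which encodes paladin, a putative phosphatase, ran on the plus strand from 21040613 to 21155424 with 17 coding exons. Its exons 1 to 13 lay below all PRF1 models. Both PRF1_copy3 and PRF1 lay inside its intron 13, which measured 94.0 kb, and its exons 14 to 17 lay between PRF1 and exon 2 of PRF1_copy4. Introns at least as long as this one made up 0.248% of all introns. A further PALD1 fragment, PALD1_copy2, had 2 coding exons of 183 and 180 bases on scaffold 9237, and exon 14 of PALD1 also had 183 bases.

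ADAMTS14, a metalloproteinase gene that processes procollagen, had 22 coding exons on the plus strand at 21495344 to 21565421. The gap from the upper edge of PRF1_copy2 to it was 22.4 kb. A partial model, ADAMTS14_copy2, lay within the PRF1 group at 21230685 to 21458828, with 6 coding exons and 636 coding bases. Its match covered bases 1601 to 2222 of the target that the longer model matched from 276 to 3978, which corresponds to about exons 8 to 12 of ADAMTS14. The first 3 introns of ADAMTS14_copy2 measured 621, 1299 and 1942 bases, and introns 8, 9 and 10 of ADAMTS14 measured 624, 1361 and 1985 bases.

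ADAMTS14_copy2 and PRF1_copy4 crossed each other. Exons 1 to 4 of ADAMTS14_copy2 lay inside the 191 kb intron of PRF1_copy4. Exon 1 of PRF1_copy4 lay inside intron 4 of ADAMTS14_copy2, which measured 180.4 kb, and PRF1_copy5 lay inside its intron 5 of 43.2 kb. Of the 5 PRF1 models, PRF1, PRF1_copy3 and PRF1_copy5 lay entirely within the span of a longer model, which was true of 2.93% of all models (683 of 23336). None of the 8 granzyme models did.

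**Figure D3:**
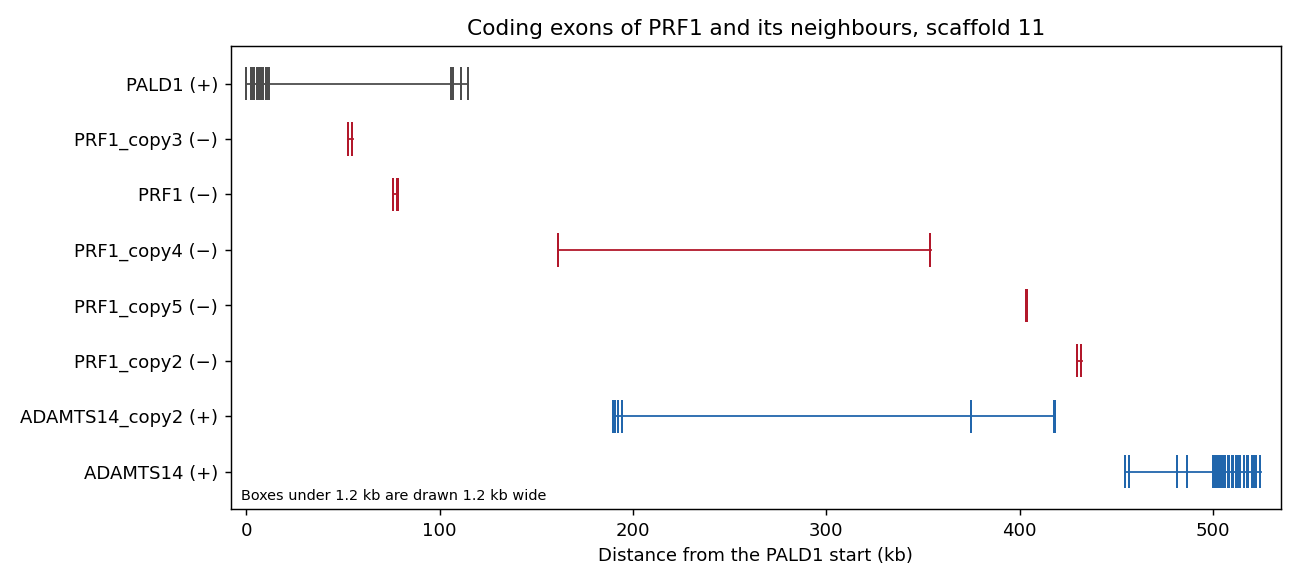
Coding exons (boxes) and introns (lines) of PALD1, the PRF1 models, ADAMTS14_copy2 and ADAMTS14 along scaffold 11, with distance from the PALD1 start in kb on the x axis and 1 row per model with its strand. PRF1_copy3 and PRF1 sit in the 94.0 kb intron of PALD1, and the long introns of PRF1_copy4 and ADAMTS14_copy2 overlap.

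Around the group, gene order followed the human order that had been written down from general knowledge. NODAL, PALD1, PRF1, ADAMTS14, TBATA, SGPL1, PCBD1 and UNC5B gave 7 successive pairs, and 7 were in the listed order on scaffold 11. NODAL, a TGF-beta family ligand, ended 73.6 kb below PALD1, and TBATA, a thymus and testis gene, began 113 kb above the last PRF1 model. From the PALD1 start to the ADAMTS14 start, the models that began were the 5 of PRF1 and ADAMTS14_copy2, 6 in all. No other symbol was placed there.

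RefSeq names for the later build MPIMG_talOcc4v2.1 carried the symbol PRF1 on 1 gene. Between it and ADAMTS14 lay 0 features, the place that PRF1_copy2 has in the deposited file. Sequences of the builds were not compared, so which deposited model it corresponds to was not tested. Between PRF1 and PALD1 that table placed 15 features without a symbol, 9 of them protein-coding, 4 pseudogenes and 2 other RNA genes. The table does not say what these encode, so 1 is a lower bound for perforin genes in the later build. PALD1 spanned 73.1 kb there against 114.8 kb in the deposited model. Of the features listed next to PALD1, 1 lay inside it, and 0 protein-coding ones did.

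The granzymes were then read in the same way, beginning with the pair of tryptase genes. GZMK and GZMA lay on the plus strand of scaffold 8, at 26771279 to 26814763, within 43.5 kb. The model GZMA, at 26808066 to 26814763, had 786 coding bases in 5 exons, whose lengths were 70, 142, 142, 270 and 162. GZMA_copy2 lay 4.06 kb below it, at 26798834 to 26804001, with 732 coding bases in 4 exons of length 167, 142, 273 and 150. Of its exon lengths, 142 also occurred in GZMA, as it did in 3.67% of all models, while the last 2 differed by 3 and 12 bases. Its match covered 738 target bases, 93.7% of that of GZMA. That match was recorded in amino acids of a protein target, and this was so for 3.92% of all models with a match. Its score of 289 is therefore not on the scale of the 601 of GZMA, and the percentage of the best score means nothing for this pair.

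GZMK, at 26771279 to 26773944, was short. It had only 426 coding bases, in exons of 264 and 162, and matched its target only from base 417 to 833. The lengths of these exons resemble those of exons 4 and 5 of GZMA, 270 and 162 bases. An exon of 162 bases occurred in 3.69% of all models. No further GZMK model held an earlier part of the gene.

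GZMH and GZMB lay on scaffold 6 in the chymase locus, 5 models within 114.3 kb from 4177214 to 4291486. GZMH, at 4277345 to 4279816 on the minus strand, had 5 coding exons of 55, 142, 136, 267 and 162 bases. GZMB, at 4289037 to 4291486 on the same strand, had 4 of 172, 184, 136 and 354 bases. The copies were smaller or poorer matches. GZMB_copy2, at 4244186 to 4245622 on the minus strand, had 4 coding exons of 65, 136, 147 and 201 bases, and its match was 48.4% as long as that of GZMB. GZMB_copy2 scored 207 against 281 for GZMB (73.7%). The match made up 55.6% of the coding bases of GZMB_copy2 and 78.7% of those of GZMB.

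GZMH_copy2 and GZMH_copy3 pointed the other way, on the plus strand, at 4177214 to 4178476 and 4183863 to 4184889, with 5.39 kb between them. Their coding length of 876 and 855 bases exceeded the 762 of GZMH, but the match made up only 27.6% and 28.3% of it. GZMH itself was matched only from its base 326 to 762, 57.3% of its coding bases. Both copies matched bases 365 to 606 of 1 target. Both ended in an exon of 594 bases, a length found in 0.107% of all models (25 of 23336). They scored 145 and 132, which is 63.0% and 57.4% of the 230 of GZMH. Coding length was thus a poor guide to completeness for this symbol.

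**Figure D4:**
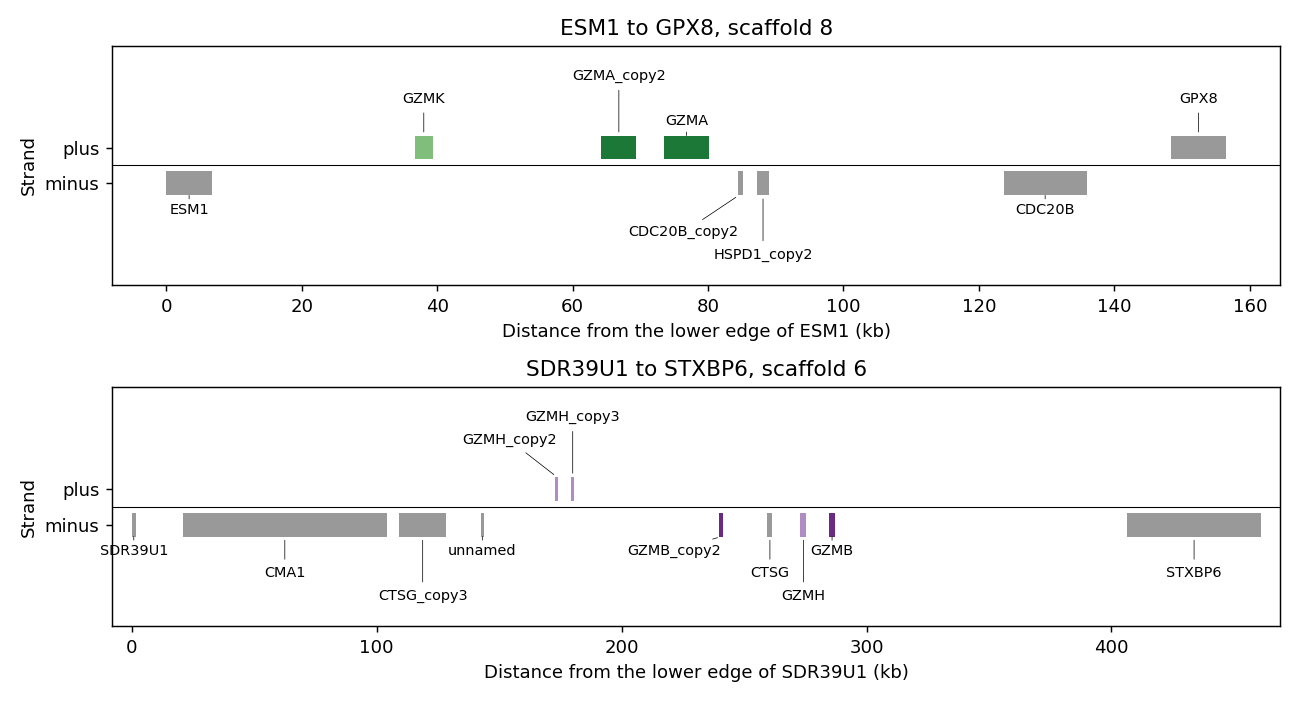
Gene models between ESM1 and GPX8 on scaffold 8 (upper panel) and between SDR39U1 and STXBP6 on scaffold 6 (lower panel), with distance from the lower edge of the panel's leftmost gene in kb on the x axis and plus-strand models above the line. Granzymes are coloured and other models grey; GZMH_copy2 and GZMH_copy3 are the only plus-strand models of the lower panel.

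The frame offsets follow from the exon lengths, and all 33 recorded offsets of the members equalled those computed from the lengths. Granzyme genes are known for 5 coding exons, with the catalytic histidine, aspartate and serine encoded in exons 2, 3 and 5. GZMA and GZMH had the frame offsets 0, 2, 1, 0 and 0 over their 5 coding exons. Of all models with 5 coding exons and recorded offsets, 1.36% (19 of 1393) had this series, which was 0.109% of all models with recorded offsets. CTSG_copy3 was another of them, with exons of 55, 148, 136, 258 and 156 bases. The series was also found in PRSS54, by name a serine protease. Genes that are not proteases had the series too, such as GSTT2B, PIGA and OPN1SW. PRSS54 and these examples were named after their values were seen. GZMB had the first 4 offsets of the series, 0, 2, 1 and 0. GZMB_copy2 read 0, 1, 0 and 0, GZMH_copy2 read 0, 1 and 0, and GZMK and GZMH_copy3 both read 0 and 0. The first offset was 0 in every member model with recorded offsets, so these short series do not place a model within the longer one. All 13 member models had a coding length of whole codons, the copies included, which was the usual state of the file (87.8% of all models).

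An exon of 136 bases recurred among the models of the chymase locus. It was exon 3 of GZMH and GZMB and exon 2 of GZMB_copy2 and GZMH_copy2, and only GZMH_copy3 of the 5 lacked it. CTSG, CTSG_copy3 and CMA1 also had it, while 3.81% of all models held an exon of that length (889 of 23336). In GZMB_copy2, CTSG_copy3 and CMA1 the part matched to the target began only after this exon, and in GZMH near its end. The equal length is therefore not backed by the match in these models. The intron after this exon measured 165 bases in GZMH, 166 in GZMB, 177 in GZMH_copy2 and 181 in GZMB_copy2. In the other proteases it measured 141 bases in CTSG, 207 in CMA1 and 238 in CTSG_copy3. GZMA had 142 bases in that place, and its next intron measured 195 bases. PRF1 models shared no exon length with any granzyme model.

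Among models with a symbol, the nearest neighbours of the 2 granzyme loci carried the listed human symbols. The upper one on scaffold 8 was the fragment CDC20B_copy2, and the lower one on scaffold 6 was the partly matched CTSG_copy3. CTSG without a suffix lay among the granzyme models, between GZMB_copy2 and GZMH. With all models counted, the lower neighbour on scaffold 6 was an unnamed model, 29.1 kb away. SDR39U1, CMA1, CTSG, GZMH, GZMB and STXBP6, each by the model without a suffix, gave 5 of 5 pairs in the listed order on scaffold 6. GZMH_copy2, GZMH_copy3 and GZMB_copy2 did not keep that order, since they lay between CTSG_copy3 and CTSG. Between SDR39U1 and STXBP6 lay 9 models over 404.8 kb: 5 granzymes, 2 of CTSG, 1 of CMA1 and 1 unnamed model of 3 coding exons (132, 258 and 141 bases). The CMA1 model spanned 83.5 kb with 7 coding exons, and only 38.6% of its 1605 coding bases belonged to its match. CTSG_copy3 had an intron of 16.6 kb before its last exon and matched its target over 38.8% of its coding bases. Among the PRF1 models, the one with a long intron, PRF1_copy4, matched its target over all of its coding bases. That match is made over the joined exons, so it cannot show whether they belong to 1 gene, which was not tested.

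On scaffold 8, ESM1, an endothelial proteoglycan gene, ended 30.0 kb below GZMK. Above GZMA came CDC20B_copy2, a fragment of 99 bases, then HSPD1_copy2, with 1 coding exon, and CDC20B. Of 9 listed pairs from SNX18 to DHX29, 8 were in the listed order. The turned pair was SNX18 and HSPB3, and the list, written from general knowledge, was not checked against a human annotation. The pair may be wrong in the list, so no difference between mole and human is read from it. In the RefSeq table, 9 features lay between ESM1 and GPX8, namely GZMK, 5 protein-coding genes without a symbol, 1 pseudogene and 2 other RNA genes. The deposited file had 6 models in that interval. Between SDR39U1 and STXBP6 the table had 31 features, 22 of them protein-coding, none with a symbol. RefSeq gave the symbols GZMA, GZMB, GZMH, CTSG and CMA1 to 0 genes, so the granzyme copy numbers could not be compared by name.

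GZMM had 0 models under that name, and 0 genes in the RefSeq table carried it. CDC34 and BSG, between which it stands in the listed human order, were neighbours on scaffold 14. The stretch between them, 5043070 to 5067087, measured 24.0 kb and held 0 models, and RefSeq placed 1 non-coding RNA gene there. Of the other proteases of that human region, AZU1, azurocidin, also had 0 models under its name, while others had models further along the same scaffold. PRTN3, proteinase 3, had 2 coding exons and 312 coding bases at 5248678 to 5249735. ELANE, neutrophil elastase, had 6 coding exons and 630 coding bases at 5253237 to 5257357. CFD, complement factor D, had 6 coding exons at 5259117 to 5264430. A gene missed by the annotation and a gene lost from the genome cannot be told apart here.

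The members were last set beside all symbols of the annotation. At least 2 models were found for 14.6% of 16075 symbols, a state that PRF1, GZMA, GZMB and GZMH shared. At least 3 models were found for 4.4%, which PRF1 and GZMH reached, and at least 5 for 1.34%, which only PRF1 of the 6 reached. At least 4 models with 2 or more coding exons and the same ordered exon lengths were found for 0.0249% (4 of 16075 symbols). The other 3, named after their values were seen, were the olfactory receptor OR7A10 with 6 equal models of 41, the ribosome biogenesis gene PES1 with 4 of 12, and RNA45S5, a ribosomal RNA name, with 5 of 23. Their models were spread over 5, 7 and 23 scaffolds, and those of PRF1 over 1. At least 2 such equal models were found for 0.0933% of symbols (15), and PRF1 was the only member symbol among them. Since PRF1 was chosen for this property, nothing is read from its rank.

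**Figure D5:**
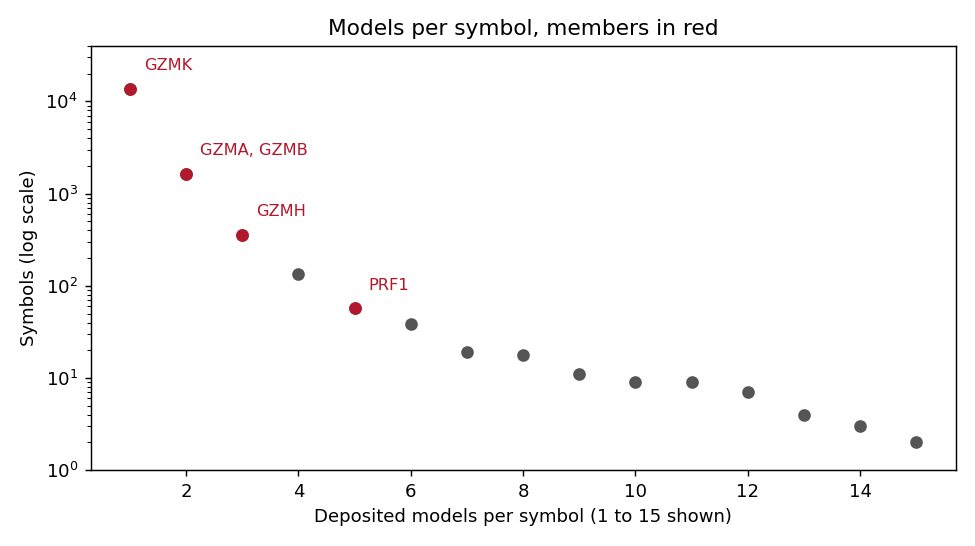
Number of symbols (y axis, log scale) with a given number of deposited models (x axis, 1 to 15 shown); the points that hold a member symbol are red and labelled. PRF1 lies at 5 models, GZMH at 3, GZMA and GZMB at 2 and GZMK at 1, and GZMM, with 0 models, is not drawn.

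The members were also read for how closely models of 1 symbol lay. Of the 2348 symbols with several models, 41.7% had all of them on 1 scaffold and strand with starts within 1 Mb. PRF1, GZMA and GZMB were of this kind. GZMH was not, because its copies lay on the opposite strand. Without regard to strand the share was 46.8%, and GZMH then belonged to it.

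The rest of the cytotoxic pathway was counted from 5 lists, 70 symbols in all. A model was found for 62 of them, and 11 had at least 2 models (17.7% of those with a model, beside 14.6% of all symbols). None of the 11 had a pair of multi-exon models with equal exon lengths, a state found for 0.0933% of all symbols, and the median was 1 model per symbol in each list, as over all symbols. Among 18 genes of granule release and content, 17 had a model and 2 had at least 2. UNC13D, which primes granules for fusion, had models of 16 and 4 coding exons side by side on scaffold 28. NKG7, a granule membrane protein, had models of 3 and 7 coding exons on scaffolds 36 and 47. GNLY, granulysin, had none, and RefSeq names of the later build lacked it too. SRGN, the proteoglycan that holds perforin and granzymes in the granule, had 1 model on scaffold 11. SERPINB9, the inhibitor of granzyme B, had 1.

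All 11 pore-forming relatives of perforin had a model, and 2 had at least 2 (18.2%, beside 14.6% of all symbols). C6, C8A, C8B, C9 and the macrophage gene MPEG1 had 1 each. C7 had a full model of 18 coding exons on scaffold 8 and a fragment of 156 coding bases on a small scaffold, and ASTN2 had models of 19 and 7 coding exons. Of 11 serine proteases related to granzymes, 9 had a model. CTSG had 3 and CTRB1, a digestive chymotrypsinogen, had 5, while AZU1 and TPSG1 had none. RefSeq names of the later build included neither AZU1 nor TPSG1.

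Of 16 genes of the death receptor arm and of granzyme targets, 15 had a model. IFNG had no model here, though RefSeq names of the later build included it. SET, a nuclear target of granzyme A, had 6, of which 5 had 1 coding exon. HMGB2, a chromatin protein, and NME1, a nuclease, both partners of SET, had 2 each. BID and FASLG had 1 each. Of 14 surface and regulator genes, 10 had a model, and CD8B, NCR3, FCGR3A and CD244 had none under these names. RefSeq names of the later build included CD8B, NCR3 and CD244, but not FCGR3A. KLRD1, which encodes the natural killer receptor subunit CD94, had 8 models, 7 of them on scaffold 34 and none equal to another in exon lengths.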

How the data were processed

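The input was the gene annotation deposited by the authors for build talOcc3. Per the file's own columns, models came from EVM, exonerate or a source named ALN, with positions counted from 1, a deposited score per transcript and a frame offset per coding exon. The submitters' processing notes name BWA for the libraries. Symbols were model names without copy and confidence suffixes, and names beginning with LOC or made of a model number carried no symbol. Each gene had 1 transcript. Exons are coding exons; introns are the stretches between them. Full length meant at least 90% of the longest coding length of the symbol, and a tandem run meant starts within 100 kb of the next on 1 strand. Target matches 2.5 to 3.5 times shorter than the query were taken as amino acids. RefSeq names and order came from build MPIMG_talOcc4v2.1, whose coordinates are not printed. Python 3.11.15 and pandas 2.3.3 were used, and the counting routines were tested on simulated data. Named genes were the members, the 3 nearest symbols on each side of each locus, models inside or between members, the listed human neighbours, and listed pathway genes with at least 2 models or none; others are marked in the text or stand for their list, and some listed genes are not reported here. Members and lists were chosen with earlier results of these data known. Counts of models have no replicate and no test. Alternatives changed the score, length, scaffold, spacing and naming rules.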

Additional observations from a re-analysis of the deposited data

How the results depend on the processing

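Of 40 alternative values over 7 results, 32 stayed within 1.5 times the reported count and 8 moved. When only models scoring 80% or more of their symbol's best were counted, granzyme models went from 8 to 4 and granzyme symbols with at least 2 models from 3 to 0; 1 of the 4 models lost is GZMA_copy2, which is scored on another scale. PRF1 kept 4 models there. With a match of at least 90% of the longest, chosen after seeing the data, granzyme models came to 5 and granzyme symbols with at least 2 models to 1. The longest PRF1 run, 3 models with starts within 100 kb, became 5 with starts within 500 kb and 5 measured from edge to edge. It fell to 2 under the score and match rules, which leave out the fragment PRF1_copy5. By RefSeq names of the later build there was 1 PRF1 gene and 1 granzyme gene; the cause was not tested. PRF1 models of full length and of equal exon lengths stayed at 4 in the settings run for them, but only 3 have both exons within 10 kb. No member name carries the low-confidence suffix, and all members lie on scaffolds over 1 Mb with over 300 coding bases, so those settings could not change a count. No paired analysis was possible because there is 1 library per tissue and no value per library was used. The planned account of forebrain and hindlimb contacts was not made. Depth per library is unknown and enters none of these counts.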
